A study of Rattus norvegicus with 2 samples.

Results

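The Hox genes were read in adult rats in a hindbrain nucleus, the nucleus tractus solitarius (NTS), on probes whose gene name in the array files is Hox, a cluster letter from a to d and a number, with control spots left out. The rule found 30 probes for 27 Hox genes, of 18061 genes with a symbol on the array. A probe whose file name is Hoxa9 carries an accession that RefSeq (GRCr8) lists as Hoxa7, and it is called Hoxa7 here. RefSeq lists 39 Hox genes in the rat. Probes under other names reached 7 more of them, and no probe was found for Hoxa4, Hoxc8, Hoxc9, Hoxd8 and Hoxd11, which were not analysed here.

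Hox genes encode homeodomain transcription factors that give cells along the head-to-tail axis their positional identity. They lie in clusters, and their order on the chromosome follows the order of their expression borders along the body: genes with low paralogue numbers reach farthest forward into the hindbrain, those with middle numbers have borders in the caudal hindbrain and the cervical and thoracic cord, and those with high numbers mark lumbar, sacral and tail levels, the limbs and the genital tract. The NTS, the first central relay of visceral sensory input, lies in the caudal part of the hindbrain, and neurons of this region keep part of their Hox expression into adult life.

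Messenger RNA was hybridised to single-colour 60-base Agilent arrays as 2 samples: 1 pool from female and 1 pool from male Wistar Kyoto (WKY) rats, a normotensive strain, aged 9 weeks and fed freely per the labels. Each pool held equal 100 ng amounts of RNA from 5 rats, and 150 ng of the pool was labelled with Cy3. Tissue was taken between 1.0 mm in front of and 0.5 mm behind the calamus scriptorius, the caudal tip of the fourth ventricle. With 1 array per pool the spread between rats is unknown and no test of sex was possible, so differences are given as sizes, female minus male, beside the spread between repeated spots within the arrays. Of the rat probes, 84.5% on the female and 81.4% on the male array were well above background.

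The signals of different probes depend on the probe sequence as well as on the transcript, so an order of probes by brightness is not an order of transcript amounts. Which stretch of a transcript a probe reads therefore matters, and the 6 probes that read the coding part of a Hox gene over a known motif are shown. The capitals mark the codons of the conserved motif in each: in Hoxb3 the core of the hexapeptide, through which Hox proteins bind Pbx cofactors, and in the others the end of the third helix of the homeodomain, which lies in the major groove of DNA. Sequences and rn4 positions are those of the array files, 5′ to 3′ on the strand given, and the motifs were found by translating each probe.
Hoxb3, chr10:85077371-85077430, plus strand: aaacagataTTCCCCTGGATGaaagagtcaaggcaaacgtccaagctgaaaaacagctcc
Hoxb8, chr10:85015077-85015136, plus strand: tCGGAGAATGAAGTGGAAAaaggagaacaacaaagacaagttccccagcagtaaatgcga
Hoxa6, chr4:80506387-80506446, minus strand: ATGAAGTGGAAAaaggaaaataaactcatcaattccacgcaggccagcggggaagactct
Hoxd12, chr3:57291311-57291370, plus strand: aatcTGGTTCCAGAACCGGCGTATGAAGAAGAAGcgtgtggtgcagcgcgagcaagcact
Hoxc12, chr7:141702097-141702156, plus strand: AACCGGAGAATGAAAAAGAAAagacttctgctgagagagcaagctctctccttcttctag
Hoxd13, chr3:57285475-57285534, plus strand: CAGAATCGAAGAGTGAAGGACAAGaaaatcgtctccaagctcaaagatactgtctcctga

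The motif letters differ between clusters and paralogue numbers, but part of them is shared. The Hoxb8 and Hoxa6 probes have a run of 17 bases in common, starting at the methionine codon of the homeodomain motif. Over all 435 pairs of Hox probes the median longest shared run was 6 bases, and 4 pairs shared 10 bases or more. Whether either of these probes also bound the other gene's transcript was not tested. The sequence AATAAA, the usual signal for the addition of a poly(A) tail, was found on the strand of 11 of the 30 Hox probes, against 8.39% of all 30367 rat probes. The Hoxa6 probe shown above is among them, and there AATAAA lies within the coding part. The presence of these letters alone thus does not mark a poly(A) signal.

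The probe positions kept the order of the paralogue numbers in all 4 clusters. The Hoxa probes span 102 kb on chromosome 4, on the minus strand. The Hoxb probes span 150 kb on chromosome 10, the Hoxc probes 96.8 kb on chromosome 7 and the Hoxd probes 93.7 kb on chromosome 3, all on the plus strand. The Hoxb2 probe has no position in the array files.

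Hox transcripts were read in the adult NTS of both sexes, and the probes brighter than the median rat probe on both arrays all belonged to genes numbered 2 to 8, though not every such gene was that bright. A probe counts as well above background when the scanner software flags at least 50% of its usable spots so, a flag that fewer Hox genes passed than the software's test of signal over background. Of the 27 Hox genes, 19 were well above background on both arrays, 3 on the female array only, none on the male array only and 5 on neither. Among all genes with a symbol, 83.3% were well above background on both arrays, 3.13% on the female array only and 13.1% on neither. All 11 genes of paralogue numbers 4 to 8 were well above background on both arrays, as were 5 of the 6 genes of numbers 1 to 3 and 3 of the 10 genes of numbers 9 to 13. The dimmest probe well above background had a signal of 9.59 on the female and 13.1 on the male array, so the female array reached slightly lower.

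A Hox gene was brighter than the median rat probe on both arrays in 10 of 27 cases, where 53.8% of all genes were. Those 10 comprised 8 of the 11 genes of numbers 4 to 8, 2 of the 6 genes of numbers 1 to 3 and none of the 10 genes of numbers 9 to 13. The median brightness percentile among all rat probes was 65.6 on the female and 63.97 on the male array for numbers 4 to 8. It was 29.9 on the female and 30.2 on the male array for numbers 1 to 3. For numbers 9 to 13 it was 14.2 on the female and 10.2 on the male array. By cluster, 7 of 9 Hoxb genes were well above background on both arrays and 5 of them were brighter than the median probe, against 4 and 1 of 6 Hoxa genes, 3 and 2 of 5 Hoxc genes, and 5 and 2 of 7 Hoxd genes. The clusters are not represented by the same paralogue numbers, so these counts also reflect which genes have probes.

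**Figure D1:**
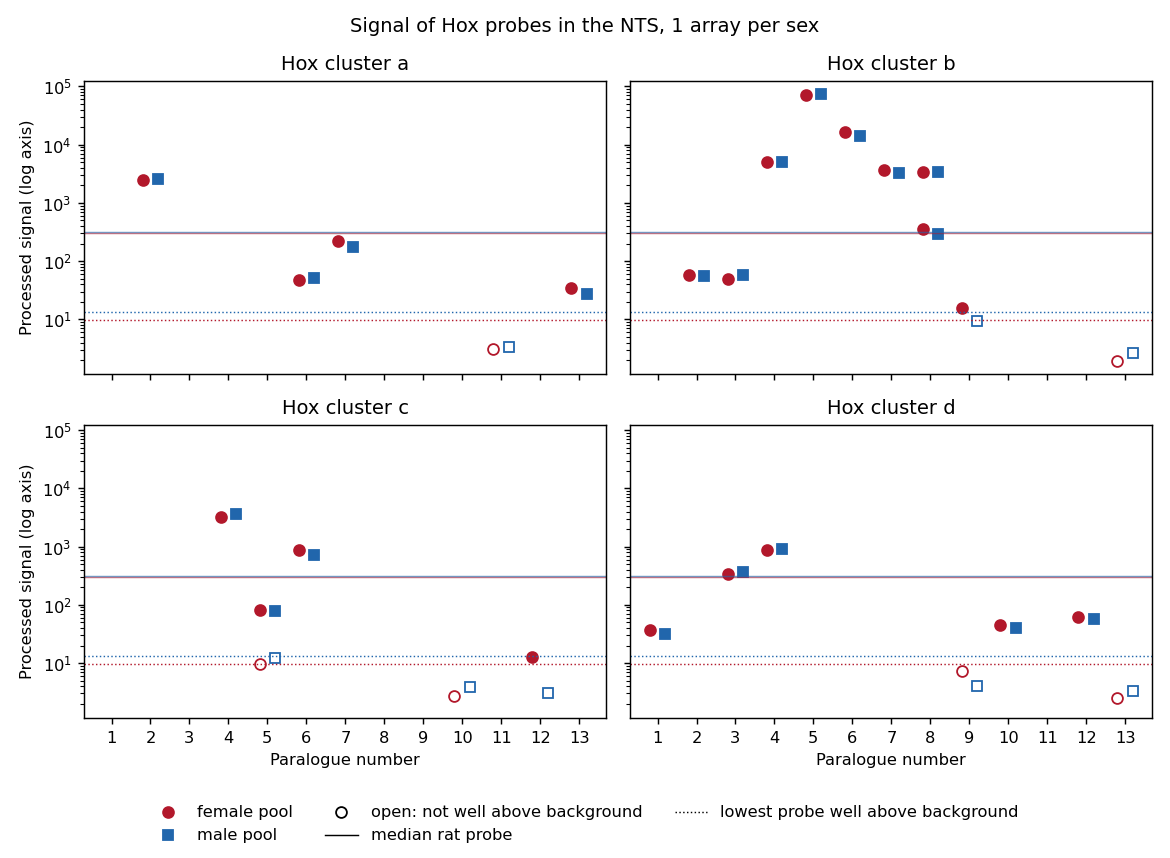
Processed signal (log axis) of the Hox probes reported here against its paralogue number, in 1 panel per cluster, with the female pool as red circles left of the male pool as blue squares. Open symbols are probes not well above background, solid lines mark the median rat probe (299 on the female array, 315 on the male array) and dotted lines the dimmest probe well above background; the symbols above the solid line belong to numbers 2 to 8.

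The genes of numbers 1 to 3, whose borders lie within the hindbrain, were read at mostly low signal. Hoxa2, which specifies the second rhombomere and the second branchial arch, had a signal of 2433 in the female and 2600 in the male pool. Hoxd3, a gene of the third paralogue group with a border in the caudal hindbrain, had 336 in the female and 359 in the male pool. Hoxb2, which in mouse contributes to the identity of facial motor neurons, had 58.6 in the female and 55.3 in the male pool, and Hoxb3 had 48.9 (female) and 57.6 (male). Both arrays thus placed Hoxa2 and Hoxd3 above the median probe, and Hoxb2 and Hoxb3 well below it.

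Hoxd1, of the first paralogue group, had a signal of 37.4 in the female and 31.8 in the male pool.

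The genes of numbers 4 to 8 ranged widely in signal, 8 of 11 above the median probe and Hoxa6, Hoxa7 and Hoxc5 below it. Hoxb5, a gene of the caudal hindbrain and cervical cord, had a signal of 70392 in the female and 73101 in the male pool, which placed its probe at the 98.0th percentile of all rat probes on both arrays. Its neighbours in the cluster were also bright: Hoxb6 had 16361 in the female and 14084 in the male pool, Hoxb4 had 5061 (female) and 5115 (male), and Hoxb7 had 3610 (female) and 3256 (male). Outside cluster b, Hoxc4 had 3259 in the female and 3594 in the male pool. Hoxb4, Hoxb5 and Hoxb6 exceeded the 75th percentile of rat spots, which was 3375 on the female and 3441 on the male array, and Hoxb7 and Hoxc4 lay close to it.

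Hoxd4, whose paralogue group has expression borders in the caudal hindbrain, had a signal of 882 in the female and 906 in the male pool. Hoxc6, known in mouse and chick for its part in forelimb motor neurons, had 879 (female) and 723 (male). Hoxa7 had 220 in the female and 175 in the male pool. Hoxc5, which in mouse acts with Hoxa5 in phrenic motor neurons, had 81.6 in the female and 77.2 in the male pool on the probe that was well above background. Its second probe was not, with 9.54 (female) and 12.2 (male). Hoxa6 had 48.3 in the female and 52.3 in the male pool on the coding probe shown above.

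Probes of the same gene could differ strongly in brightness. Hoxb8, whose loss in mouse causes excessive grooming, read 3429 in the female and 3453 in the male pool on a probe that holds AATAAA, and 352 (female) and 290 (male) on the homeodomain probe shown above. For Hoxa6, 10 spots of another probe, deposited under the locus name LOC100909604, averaged 215 in the female and 226 in the male pool, a difference of -0.05 ± 0.07 (SD over the 10 spots), where the coding probe read 48.3 (female) and 52.3 (male).

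The genes of numbers 9 to 13 were dim. Hoxd12 had a signal of 61.2 in the female and 56.8 in the male pool, Hoxd10, a gene of lumbar motor neurons in mouse, had 45.4 (female) and 40.1 (male), and Hoxa13, a gene of the distal limb and genital tract, had 34.4 (female) and 27.5 (male). These 3 were the genes of this range that were well above background on both arrays. Hoxb9 was well above background in the female pool only, with 15.9 against 9.34 in the male pool. Its bound, taken against the dimmest male probe that passed, was 1.23-fold. That is 0.30 on the log2 scale, less than the spot SD of 0.33 for probes that dim. Of the 1121 probes well above background on the female array only, 5.62% had a bound of 2-fold or more. Hoxc12 was as well, with 12.5 against 3.12 in the male pool, but 12.5 lies below the dimmest male probe that passed, so no bound could be given.

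The 5 genes not well above background on either array were all of this range. Hoxd9 had a signal of 7.31 in the female and 3.96 in the male pool, and Hoxa11 had 3.15 (female) and 3.39 (male). Hoxc10, a lumbar gene, had 2.73 in the female and 3.93 in the male pool, Hoxd13 had 2.51 (female) and 3.36 (male), and Hoxb13, known from the prostate and the tail region, had 1.92 (female) and 2.60 (male). Negative control spots without an outlier flag had a median of 2.29 and a maximum of 3.06 on the female array (144 spots), and a median of 3.07 and a maximum of 4.40 on the male array (145 spots). Over all 153 control spots, flagged ones included, the maximum was 63.1 on the female and 24.4 on the male array. On the female array Hoxd9 and Hoxa11 exceeded the highest unflagged control, and on the male array none of the 5 did; none exceeded the highest control of all on either array.

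Probes filed under other names extended the same picture. Hoxa5, a regulator of phrenic motor neurons and the respiratory system in mouse, had a signal of 52084 in the female and 48978 in the male pool. Hoxa3 had 497 in the female and 437 in the male pool, Hoxb1 had 102 (female) and 87.6 (male), and Hoxc13 had 30.0 (female) and 27.6 (male). Hoxc11 passed on the female array only, with 23.4 against 19.3 in the male pool. Hoxa9, with 3.21 in the female and 3.28 in the male pool, and Hoxa10, with 2.07 (female) and 2.78 (male), were not well above background on either array.

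No Hox gene that could be measured in both pools differed by 1.5-fold between them. None of the 19 genes well above background on both arrays differed by 2-fold, where 0.505% of the 15045 genes compared did, 0.113% with the female pool higher and 0.392% with the male pool higher. Of all genes, 2.42% reached 1.5-fold. The differences ran from -0.21 for Hoxb3 to 0.36 for Hoxa7 on the log2 scale. The female pool was higher in 12 genes, the male pool in 7, and the median difference was 0.11; over all genes compared the female pool was higher in 46.1% and the median was -0.01. Scaling by the spike-ins instead adds 0.67 to every difference, after which 19 of 19 Hox genes had the higher value in females. Hoxa7 at 1.03 and Hoxa13 at 1.02 then exceeded 2-fold. The Hox median was then 0.78, beside 0.66 over all genes. The Hox median also depended on other settings: it was 0.001 over the 10 genes brighter than the median probe and 0.02 with another background correction.

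Hoxb6, Hoxc6, Hoxb7 and Hoxa7 were higher in the female pool by more than 2 SDs of the spot-to-spot error, at the 75th percentile scaling. This error was taken from probes spotted 10 times as the SD of the female minus male difference over their spots, in classes of brightness: 0.33 for the dimmest, more than 64-fold below the 75th percentile, then 0.15, 0.09 and, for the brightest class, 0.07. It holds technical error only and says nothing of the spread between rats. Hoxb6 was higher in the female pool by 0.24, which is 3.53 such SDs, and Hoxc6 by 0.31, or 3.46 SDs. Hoxb7 was higher by 0.18, or 2.56 SDs, and Hoxa7 by 0.36, or 2.41 SDs. Thus 4 of 19 Hox genes exceeded 2 spot SDs, a share close to the 19.3% of all genes, and 7 of 19 exceeded 1 SD, where 47.7% of all genes did. With normexp background correction the Hoxa7 difference was 0.20. The Hoxb6 and Hoxb7 probes lie in bands of array rows that 1 alternative, added after seeing the data, left out. That alternative thus has no value for these genes, while Hoxc6 was higher by 0.31 and Hoxa7 by 0.37. The same bands hold the probes of Hoxa2, Hoxb4, Hoxb5 and Hoxd3 and the homeodomain probe of Hoxb8. They also hold the probe of Hoxc12, which was well above background on the female array only.

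Second probes could be read for Hoxc6 and Hoxb8. The Hoxc6 gene had another probe, deposited under a transcript identifier, with a signal of 57.3 in the female and 46.0 in the male pool, higher in the female pool by 0.35, where the spot SD for probes that dim is 0.33. The Hoxb8 probes disagreed: the homeodomain probe was higher in the female pool by 0.31, or 3.45 spot SDs, and the brighter probe by 0.02, or 0.26 SDs. The gene value of 0.16 is the midpoint of the 2 probes, and it was 0.02 when the brightest probe alone was used. It was also 0.02 without the left-out bands of array rows, which hold the homeodomain probe.

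Other bright members were close to equal in the pools. Hoxb5 differed by -0.03 and Hoxb4 by 0.01, each less than 1 spot SD, as did Hoxd4 at -0.01. Hoxa2 at -0.07 and Hoxd3 at -0.07 were also within 1 SD. Hoxc4 differed by -0.11, or -1.63 SDs, with the lower value in the female pool. Among dim members the error was larger: Hoxa13 at 0.35 lay 1.07 SDs from 0, and Hoxd1 at 0.26, Hoxd10 at 0.21, Hoxd12 at 0.14, Hoxb2 at 0.11, Hoxc5 at 0.11, Hoxa6 at -0.09 and Hoxb3 at -0.21 all lay within 1 SD.

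**Figure D2:**
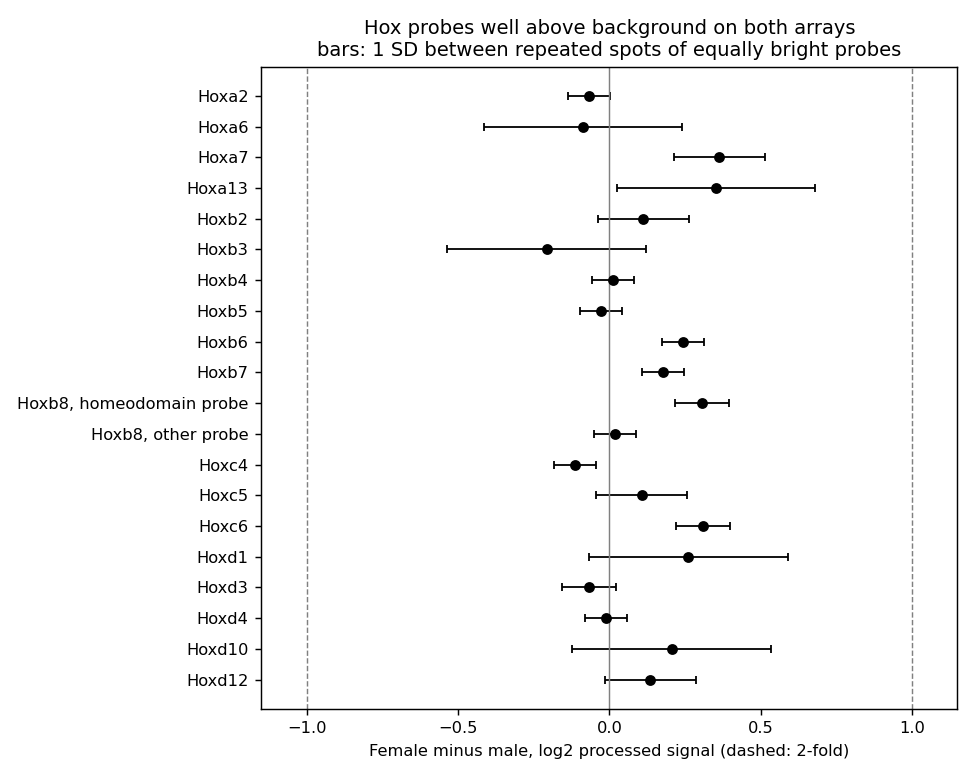
Female minus male difference of the log2 processed signal for each Hox probe well above background on both arrays, in cluster and paralogue order from top to bottom; bars are 1 SD of the difference between repeated spots of equally bright probes, and dashed lines mark 2-fold. All points lie between -0.21 and 0.36, and the bars are wide for dim probes such as Hoxb3 and Hoxa13 and narrow for bright ones such as Hoxb5.

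Pieces of tissue in and around the NTS were checked on marker lists, since a pool of dissected tissue holds many cell types. In such bulk samples fewer cells of a type and less RNA per cell cannot be told apart. Of 12 NTS and dorsal vagal markers, 11 had a probe and all 11 were well above background on both arrays, where 83.3% of all genes were. Among them were Dbh and Th, the enzymes of the catecholamine neurons, and the neuropeptide genes Gcg, Prlh, Npy and Pomc. Over the 11 markers the median difference was 0.05, with a range from -0.19 for Gcg to 0.62 for Prlh. Of the 11, 9 were brighter than the median rat probe, where 53.8% of all genes were on both arrays, and Lmx1b and Cckar were not. Over all genes compared, 46.1% were higher in the female pool, a share that stands beside the direction counts of the lists below. Markers of blood cells were lower in the female pool in 7 of 7 genes, with a median of -0.64. Their summed signals were 162492 in the female and 223378 in the male pool, most of it from Hbb (154479 female, 211199 male). Markers of meninges and fibroblasts were lower in 8 of 8, with a median of -0.28 and sums of 39957 (female) and 59746 (male). Most of these sums came from Col1a2 (16663 female, 31761 male) and Igf2 (13527 female, 14929 male). Choroid plexus markers were lower in 6 of 7, with a median of -0.23 and sums of 46996 (female) and 55538 (male), mostly from Ttr (44706 female, 52815 male). None of these markers was below background, and their part in the Hox differences was not tested. Of the 8 cerebellar markers, Gabra6 passed on neither array and the other 7 were on both, with a median difference of -0.08. Of 5 oligodendrocyte markers, 4 were higher in females and the median was 0.27. Astrocyte and microglia markers were lower in 4 of 4 genes each, with medians of -0.20 and -0.22. The medians were -0.01 for neurons and for the area postrema and -0.06 for vagal and hypoglossal motor neurons. The 0.67 that the spike-in scaling adds exceeds the size of each of these list medians. Under that scaling the negative medians thus turn positive and the positive ones stay so. Scaling to the median instead adds only 0.03 to every difference.

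Transcription factors whose embryonic expression lies in front of the Hox domain were read at mixed signals. Of 13 transcription factors of the forebrain and midbrain, 12 had a probe. Of these, 8 were well above background on both arrays (83.3% of all genes were), 1 on the female array only and 3 on neither. Among those that passed on neither, Emx2, of the cortex, had a signal of 2.80 in the female and 3.87 in the male pool, and Tbr1, of cortical projection neurons, had 2.46 (female) and 10.5 (male). Six3, of the rostral forebrain and eye, had 40.0 in the female and 9.64 in the male pool, where it did not pass. Rax had 230 in the female and 284 in the male pool, and Neurod6 had 107 (female) and 65.9 (male).

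Factors of the midbrain and its border with the hindbrain were also read. En1 had a signal of 23.2 in the female and 23.6 in the male pool, En2 had 19.5 (female) and 19.9 (male), and Dmbx1 had 37.0 (female) and 35.1 (male). Otx1 was bright, with 3793 in the female and 3795 in the male pool. Otx2, which is also a choroid plexus gene, had 282 in the female and 372 in the male pool. Over the 8 genes that passed on both arrays the median brightness percentile was 31.9 on the female and 28.7 on the male array. The largest difference among these genes was that of Neurod6 at 0.73, with a spot SD of 0.15.

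Among the TALE homeodomain proteins, those of the Pbx and Meis families bind DNA together with Hox proteins. All 11 members of the Pbx, Meis, Pknox and Tgif families were well above background on both arrays, with a median percentile of 64.5 on the female and 64.2 on the male array. None differed by 2-fold, and the median difference was -0.02. Of all genes with a symbol, 83.3% were well above background on both arrays, and 0.505% of the genes compared differed by 2-fold. These shares also stand beside the counts of the lists below. The largest differences were those of Tgif2 at -0.47, whose 4 probes ran from -0.69 to 0.35, of Pknox2 at -0.22, and of Meis1 at -0.08. The spot SD is 0.15 for Tgif2 and Pknox2 and 0.07 for Meis1.

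Retinoic acid switches on Hox genes of low number in the embryonic hindbrain. Of 17 genes of its synthesis, breakdown, binding and receptors, 16 were well above background on both arrays, none differed by 2-fold, and the median difference was -0.06. Aldh1a2, a synthesising enzyme that is also in the meningeal marker list above, had a signal of 5024 in the female and 7454 in the male pool, a difference of -0.54. Cyp26c1, a breakdown enzyme, had 21.6 in the female and 16.4 in the male pool, a difference of 0.42. The receptor gene Rxrg had 1864 (female) and 1438 (male), a difference of 0.40. The spot SD is 0.33 for Cyp26c1 and 0.07 for Aldh1a2 and Rxrg. Aldh1a3 passed on neither array, with 2.24 in the female and 3.04 in the male pool.

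Of 11 regulators that set or accompany segmental Hox expression in the embryo, 8 were well above background on both arrays, none differed by 2-fold, and the median difference was -0.02. Evx2, a homeobox gene next to the Hoxd cluster, had a signal of 42.0 in the female and 29.7 in the male pool, a difference of 0.53. Evx1, next to the Hoxa cluster, had 49.2 (female) and 43.0 (male), a difference of 0.22. The spot SD for probes as dim as these is 0.33. Gbx2, of the anterior hindbrain, differed by 0.22, with a spot SD of 0.15. Cdx4 passed on neither array, with 6.18 in the female and 3.74 in the male pool, and Egr2 and Cdx2, named after their values were seen, passed on the female array only.

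Polycomb and trithorax proteins keep Hox genes off or on through later life. Of 24 such genes, 20 had a probe and all 20 were well above background on both arrays, with a median difference of 0.03 and none at 2-fold. The largest differences were those of Men1 at 0.29, Ring1 at 0.26 and Cbx8 at -0.25, each with a spot SD of 0.07. Of 14 transcription factors of dorsal hindbrain neurons, 12 had a probe and 10 were well above background on both arrays, with a median difference of 0.03. Lhx2 at 0.63, Lmx1b at 0.23 and Lhx5 at 0.12 differed most, none of the 10 by 2-fold. The spot SD is 0.33 for Lhx2 and 0.15 for Lmx1b and Lhx5. Ptf1a, with 8.95 in the female and 11.0 in the male pool, and Tlx1, with 5.67 (female) and 3.53 (male), were not well above background on either array.

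**Figure D3:**
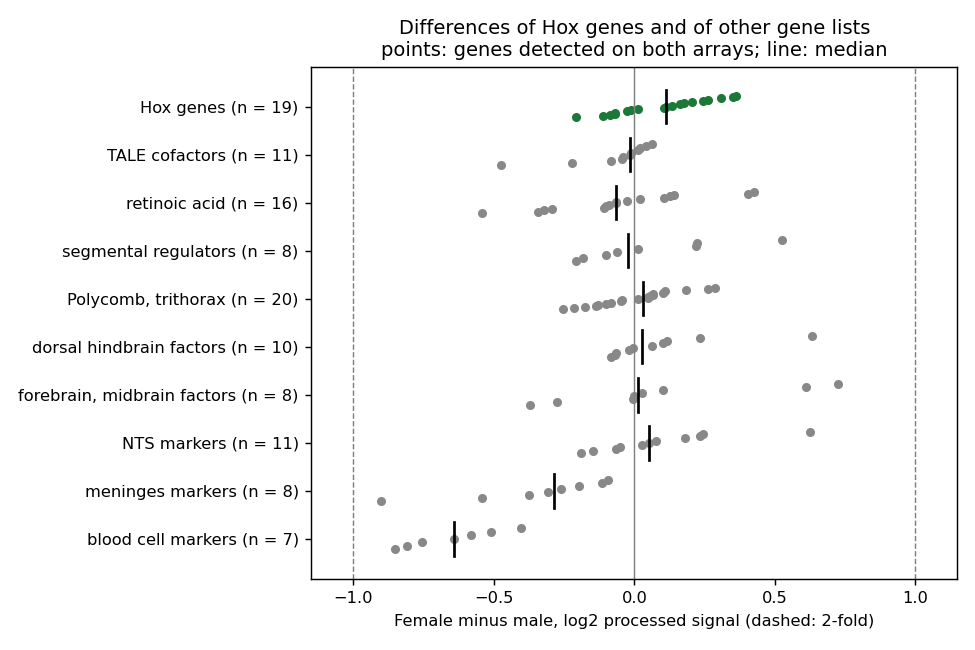
Female minus male difference of the log2 processed signal for genes well above background on both arrays, by list, with 1 point per gene, a line at each list's median and dashed lines at 2-fold. The 19 Hox genes (green) lie between -0.21 and 0.36, whereas all 7 blood cell markers and all 8 meningeal markers lie below 0 at the 75th percentile scaling shown; the spike-in scaling would move every point by 0.67 to the right.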

How the data were processed

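Intensity values of 2 single-colour Agilent arrays, 1 of the female and 1 of the male pool, were deposited. Per the file headers, Feature Extraction 10.7.3.1 subtracted background and removed spatial trends inside an array to give the processed signal; version 9.1 is named in the submitters' processing notes. A deposited value table holds the same intensity values times 1 factor per array (linear, not centred, column medians 27.3 female and 28.0 male). For each rat spot, log2 of the processed signal was taken relative to the array's 75th percentile; 430 spots with an outlier flag were left out, spots of a probe were averaged, and a gene's difference is the median of its probes well above background on both arrays. No spot was saturated. Gene symbols came from RefSeq (GRCr8) through probe accessions for 24 of 30 Hox probes, positions from the array files (rn4). There is no test, since there is 1 array per group; the number of arrays limits the precision, and the method was tested on simulated data. The members, lists and alternatives were chosen with earlier results of these data known. The rule names every Hox gene, from each other list the 3 largest differences and the genes not well above background on either array, and every gene of the forebrain and midbrain list; a few genes that it names are not reported here. Alternatives were 4 other scalings, the value table, normexp background correction (offset 50), flagged spots kept, 3 other filters, the brightest probe, 1.5-fold, 3 other detection rules and, added after seeing the data, leaving out 5 of 20 bands of array rows. Python 3.11.15, pandas 2.3.3, statsmodels 0.14.6 and limma 3.58.1 were used.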

Additional observations from a re-analysis of the deposited data

How the results depend on the processing

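No paired analysis was possible because each sex has 1 pooled sample. Scaling by the spike-ins moved the median of all genes by 0.67, to 0.66; the Hox median was then 0.78, 2 Hox genes were at 2-fold or more (Hoxa7 and Hoxa13), and 19 were higher in the female and 0 in the male pool. It also moved the split of all genes at 2-fold, of which 97.3% were higher in the female pool, against 22.4% otherwise. Under normexp background correction the Hox median was 0.018. When a probe had to pass on 1 array only, or with no filter, 2 Hox genes were at 2-fold (neither well above background in the male pool), and with no filter 12 genes were higher in the male pool. Over the genes brighter than the median probe the Hox median was 0.0011 and 5 genes were higher in the female pool. Without the 5 marked bands of array rows 13 Hox genes were left, 4 of them higher in the male pool. Apart from the spike-ins, 14 of 19 Hox genes kept their sign under every alternative that kept them.

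Median brightness percentiles moved too, by over 1.5 times for paralogue 13, at 5.05 on the female and 7.05 on the male array without the change, and for paralogue 11 on the male array, at 7.23. Under normexp, on the female array, they were 64.6 for cluster b and for paralogue 8, 31.7 for cluster c, 54.2 for paralogue 2, 64.8 for paralogue 5, 60.7 for paralogue 6, 10.3 for paralogue 11 and 9.96 for paralogue 13. On the male array they were 62.8 for cluster b and for paralogue 8, 30.5 for cluster c, 53.9 for paralogue 2, 64.2 for paralogue 5, 58.0 for paralogue 6, 10.1 for paralogue 9, 16.6 for paralogue 10, 3.85 for paralogue 11 and 12.2 for paralogue 13. With the brightest probe of a gene they were 79.2 on the female and 78.3 on the male array for cluster b (65.6 and 63.97 with all probes), 79.2 and 79.0 for paralogue 8, and 27.1 on the female array for paralogue 1. The cause of these shifts was not tested. The number of Hox genes that passed on both arrays ran from 18 to 21 over the other detection rules. The value table lists 22 for each array, which includes genes that were not well above background on the male array.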
